A study of Mus musculus with 2 samples.

Results

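The genes described here are 53 mouse genes of the DNA damage checkpoint, the Fanconi anemia pathway and the repair of DNA breaks. They were picked by their known function, with earlier results of these data known. Their symbols were looked up among the 16803 genes of an RNA-seq table of NE4C cells, an established mouse neural stem cell line. All 53 were in the table, and all had the minimum of 10 reads in both libraries together that was set for testing. The study compared NE4C cells in normal culture (control) with NE4C cells treated with homocysteine thiolactone (HTL), the reactive ring form of homocysteine that attaches to lysine residues of proteins. Both cultures grew in Eagle MEM on plates coated with poly-L-lysine, and neither the dose nor the duration of HTL is given for these libraries. Each condition had 1 library of total RNA. No difference below therefore has a replicate check, and every interval and test covers the counting error between these 2 libraries only, not the conditions.

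A cell that meets a broken or stalled DNA molecule starts a kinase cascade. ATM, called in by the MRE11-RAD50-NBN complex, answers broken ends, and ATR, brought by ATRIP and switched on by TOPBP1, answers single-stranded DNA. CHEK2 and CHEK1 are their respective effector kinases and hold the cell cycle. Broken ends are then either joined directly (non-homologous end joining, through XRCC5, XRCC6 and PRKDC) or trimmed and copied from the sister chromatid (homologous recombination, through BRCA1, PALB2 and BRCA2). The Fanconi proteins open crosslinks between the DNA strands: a core complex marks the FANCD2-FANCI pair with ubiquitin, and nucleases held by SLX4 then cut. These genes matter in proliferating neural progenitors, which replicate their DNA often. NE4C was derived from a p53-deficient mouse embryo. In the table Trp53 had 3 control and 7 HTL treatment reads (log2 ratio 1.27, 95% interval -0.72 to 3.99).

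The libraries held 10350665 control and 9102076 HTL treatment reads, and 13442 genes were tested. The neural stem cell markers Nes (1617 and 1365 reads) and Sox2 (894 and 285 reads) were present, while Fabp7, a radial glia marker, had 2 reads in each library. The astrocyte marker Gfap had 2 and 0 reads. The 8 neuron markers together came to 86.1 control and 105 HTL treatment CPM (a gene's reads scaled to a common library size of 1e+06) with a median log2 ratio of -0.60 over the 7 tested, and the 4 fibroblast markers to 8.21 and 9.89 CPM. Of the neuron markers tested, Tubb3, Stmn2 and Rbfox3 had log2 ratios above 0 and the other 4 below. In bulk RNA, fewer cells of a kind and less RNA per cell cannot be told apart. Log2 ratios compare the HTL treatment with the control library after scaling to the library totals. The median gene tested had a log2 ratio of -0.14, and scaling by TMM raised every log2 ratio by 0.13. The 95% interval of a log2 ratio was taken from the share of a gene's reads that fell in the HTL treatment library (exact, Clopper-Pearson).

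The members were lower as a group in the HTL treatment library, with a median log2 ratio of -0.39 against -0.14 for all genes tested. Of the 53 members, 40 lay below the median gene, and the middle 50% of members ran from -0.73 to -0.16. The members together took 0.378% of the control reads (95% interval 0.375% to 0.382%) and 0.288% of the HTL treatment reads (0.284% to 0.291%). A call needed a log2 ratio of 1 or more in size together with an adjusted p no higher than 0.001 (exact binomial test of the read counts, two-sided, Benjamini-Hochberg over all genes tested). By that rule 8 members were lower, namely Xrcc4, Brca2, Rad51c, Mdc1, Chek2, Atm, Atr and Fanci, and 0 were higher. That is 15.1% of the members, where 7.98% of all genes tested were called lower and 2.81% called higher. Under TMM scaling 6 members were called lower and 1 higher (Rnf8), against 5.95% and 4.11% of all genes. Of the 25 members with whole-number counts and no exon overlap with another gene, 2 were called lower (Brca2 and Rad51c), against 7.95% of the genes tested when the other members were left out, an alternative chosen after seeing the data.

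By the adjusted p alone, 25 members were lower and 4 higher (Rnf8, Rad52, Xrcc2 and Exo1), against 24.1% and 14.5% of all genes tested. Under TMM these counts were 20 lower and 7 higher, against 18.5% and 20.1% of all genes. Hus1, Chek1 and Rad9a then passed as higher, and Palb2, Rbbp8, Fancm, Mre11a and Parp1 no longer passed as lower. If cultures are assumed to vary with a coefficient of variation of 0.2, which these libraries cannot measure, edgeR's exact test called 0 members and 0.61% of all genes lower. The plot of log2 ratios by role shows all 53 members.

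Reads are less certain where genes share exons. The 17 members whose exons overlap another gene are Atr, Atrip, Rad9a, Trp53bp1, Rnf8, Xrcc3, Rad54l, Fanca, Fancc, Fancf, Fancl, Fancd2, Fanci, Eme1, Xrcc4, Xrcc6 and Dclre1c. The 14 members with fractional estimated counts are Atm, Chek1, Chek2, Rad1, Mdc1, Rnf8, Rnf168, Bard1, Brip1, Mre11a, Rad51d, Xrcc2, Xrcc3 and Dclre1c.

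**Figure D1:**
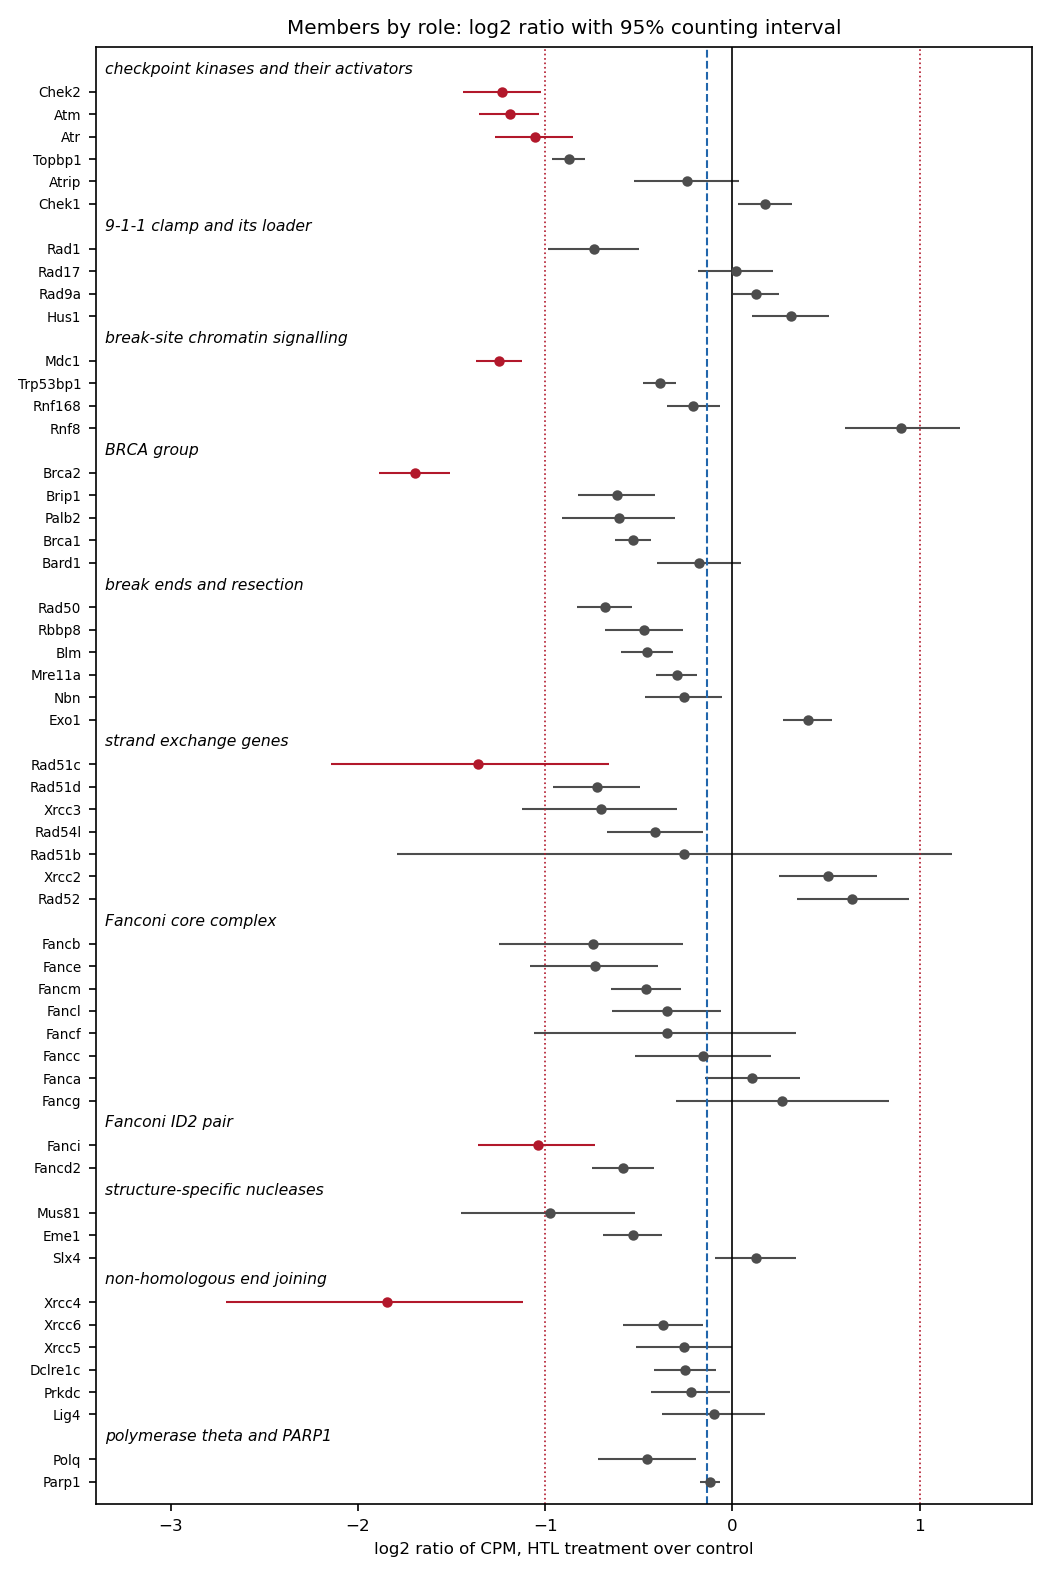
Log2 ratio of CPM in the HTL treatment over the control library for each of the 53 members, grouped by role. Points are ratios, bars are 95% counting intervals, red marks the 8 members called lower, the dashed line is the median of all genes tested (-0.14) and the dotted lines mark -1 and 1; most points sit to the left of the dashed line, and Rnf8 is the farthest to the right at 0.90.

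Among the checkpoint kinases and their activators, the upstream kinases and CHEK2 were lower and Chek1 was not. Atm (gene ID 11920; NCBIM37 chromosome 9, 53247254 to 53344845, minus strand) counted 1145 control and 441 HTL treatment reads, or 9.11 and 3.98 FPKM (reads per kilobase of transcript, scaled to library size). Its log2 ratio was -1.19 (95% interval -1.35 to -1.03). Atr (gene ID 245000; chromosome 9, 95758016 to 95852063, plus strand) counted 630 and 266 reads (log2 ratio -1.06, -1.27 to -0.85). Atr was at -0.93 under TMM and lost its call under each other scaling, and its exons overlap Gm16794 and the pseudogene 1700065D16Rik on the opposite strand. Both kinases thus stood at 43.8% and 48.1% of their control level. Chek2 (gene ID 50883; chromosome 5, 111269036 to 111303152, plus strand) had 699 and 262 reads, or 30.0 and 12.8 FPKM, and a log2 ratio of -1.23 (-1.44 to -1.02). Chek1, the effector kinase of the ATR branch, counted 793 and 786 reads (log2 ratio 0.17, 0.029 to 0.32; adjusted p = 0.033 by the exact binomial test). Topbp1, the activator of ATR, was the most abundant of these genes by reads (3206 and 1538) and was lower by the adjusted p, at a log2 ratio of -0.87 (-0.96 to -0.79). Atrip, the partner of ATR, counted 248 and 184 reads (log2 ratio -0.24, -0.53 to 0.036), and its exons overlap Trex1 on the same strand. The reads of the 6 genes summed to 649 CPM (634 to 665) in the control and 382 CPM (369 to 395) in the HTL treatment library.

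The ring-shaped clamp of RAD9A, RAD1 and HUS1, which carries TOPBP1 to ATR, and its loader RAD17 were near level as a sum when scaled to the library totals (log2 ratio 0.021, -0.065 to 0.11). Their median log2 ratio lay 0.21 above the median gene, and under TMM Hus1 and Rad9a were higher by the adjusted p. Exons of Rad9a overlap Ppp1ca on the opposite strand. Their summed level was 226 CPM (217 to 235) in the control and 229 CPM (219 to 239) in the HTL treatment library. Hus1 counted 373 and 407 reads (log2 ratio 0.31, 0.11 to 0.52). Rad9a counted 1120 and 1075 reads (log2 ratio 0.13, 0.0042 to 0.25), and Rad17 had 437 and 389 reads, at 0.018 (-0.18 to 0.22). Rad1 was the exception, lower by the adjusted p on 407 and 214 reads (log2 ratio -0.74, -0.99 to -0.50). For Rad1 the deposited FPKM (19.6 and 14.0) gave a smaller log2 difference of -0.48, 0.26 above that of the reads. Palb2, at 0.11 above, was the other member for which the scales differed by over 0.1.

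At the chromatin around a break, MDC1 reads phosphorylated H2AX and recruits the ubiquitin ligase RNF8. The ligase RNF168 follows, after which TRP53BP1 binds. These genes split in direction. Mdc1 (gene ID 240087; chromosome 17, 35978460 to 35996615, plus strand) had 1980 and 734 reads, or 25.6 and 10.8 FPKM, and a log2 ratio of -1.25 (-1.37 to -1.12). Trp53bp1 counted 2557 and 1718 reads (log2 ratio -0.39, -0.48 to -0.30), and Rnf168 had 933 and 710, a log2 ratio of -0.21 (-0.35 to -0.066). Rnf8 had 144 and 237 reads, or 6.63 and 12.4 FPKM, and a log2 ratio of 0.90 (0.60 to 1.21), the highest of the 53 members. Exons of Rnf8 overlap an annotated gene on each strand, and the use of strand in counting is not stated, so its reads are uncertain.

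**Figure D2:**
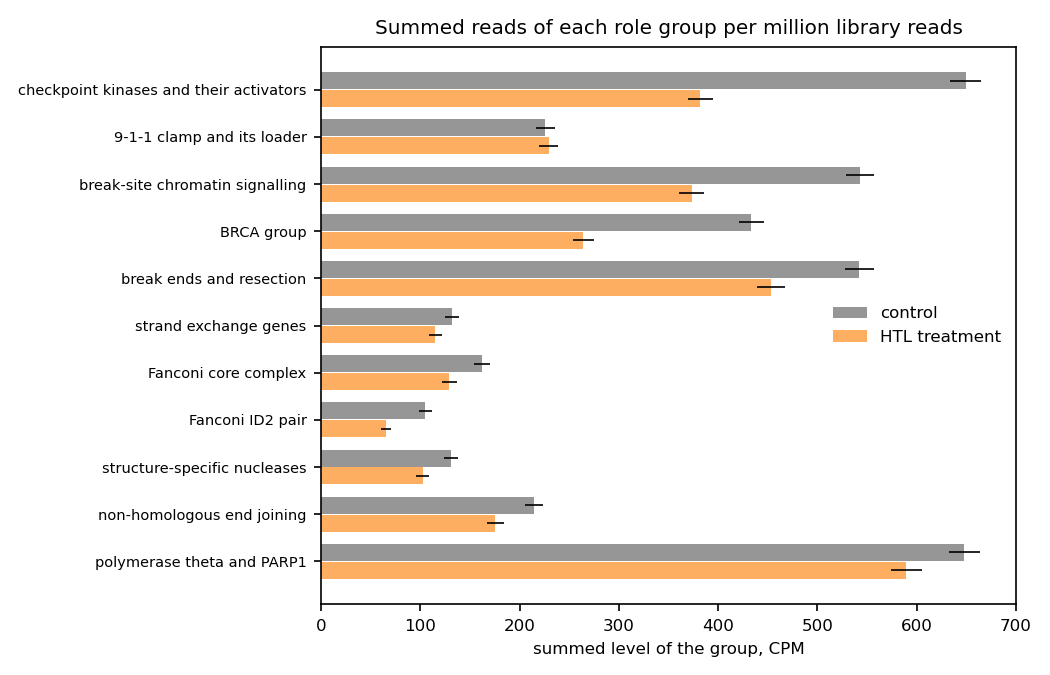
Summed level of each role group in CPM in the control library (grey) and the HTL treatment library (orange), with exact 95% counting intervals. Scaled to the library totals, the clamp genes are at 226 and 229 CPM (TMM raises every log2 ratio by 0.13), and the checkpoint kinases show the widest gap, 649 against 382 CPM.

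In the BRCA group, every member had a log2 ratio below 0, and Brca2 stood apart from its partners. Brca2 (gene ID 12190; chromosome 5, 151325205 to 151372321, plus strand) counted 1077 control and 292 HTL treatment reads, or 9.32 and 2.87 FPKM. Its log2 ratio was -1.70 (-1.89 to -1.51), 30.9% of its control level. Brip1, a helicase that binds BRCA1, counted 550 and 315 reads (log2 ratio -0.62, -0.82 to -0.42), and Palb2, the bridge between BRCA1 and BRCA2, counted 251 and 145 reads (log2 ratio -0.60, -0.91 to -0.31). Brca1 counted 2229 and 1357 reads (log2 ratio -0.53, -0.63 to -0.43). With Brca2, 4 of the 5 genes were lower by the adjusted p and 1 was called, against 24.1% and 7.98% of all genes. Palb2 did not pass the adjusted p under the other 3 scalings. Bard1, the obligate partner of BRCA1, counted 380 and 295 reads (log2 ratio -0.18, -0.40 to 0.043), close to the median gene.

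Of the 8 genes called lower, 4 hold letters of an E2F site in their RefSeq promoter window, and these windows were chosen to be shown for those letters. The windows of Atm, Atr, Fanci and Xrcc4 hold none. E2F factors switch on many S phase genes. A window runs from 250 bases before to 50 after the annotated start, on build GRCm38.p6, and 44 of the 53 members had one. E2F letters were TTTCCCGC, TTTGGCGC, TTTGCCGC and TTTCGCGC, and CCAAT box letters were CCAAT, both on either strand. In the sequences the capitals mark these letters.
Brca2 (chr5:150522371-150522670, plus strand): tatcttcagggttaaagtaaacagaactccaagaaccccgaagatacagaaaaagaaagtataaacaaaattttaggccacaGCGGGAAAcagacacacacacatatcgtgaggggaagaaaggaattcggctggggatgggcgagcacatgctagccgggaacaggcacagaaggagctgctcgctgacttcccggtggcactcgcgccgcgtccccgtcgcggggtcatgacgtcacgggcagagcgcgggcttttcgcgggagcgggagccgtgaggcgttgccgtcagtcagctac
Chek2 (chr5:110839733-110840032, plus strand): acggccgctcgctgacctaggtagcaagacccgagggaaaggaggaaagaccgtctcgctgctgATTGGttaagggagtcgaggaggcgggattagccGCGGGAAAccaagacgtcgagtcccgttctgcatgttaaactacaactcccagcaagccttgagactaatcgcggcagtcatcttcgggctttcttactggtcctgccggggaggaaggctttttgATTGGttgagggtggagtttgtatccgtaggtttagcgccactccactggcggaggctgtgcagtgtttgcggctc
Mdc1 (chr17:35841248-35841547, plus strand): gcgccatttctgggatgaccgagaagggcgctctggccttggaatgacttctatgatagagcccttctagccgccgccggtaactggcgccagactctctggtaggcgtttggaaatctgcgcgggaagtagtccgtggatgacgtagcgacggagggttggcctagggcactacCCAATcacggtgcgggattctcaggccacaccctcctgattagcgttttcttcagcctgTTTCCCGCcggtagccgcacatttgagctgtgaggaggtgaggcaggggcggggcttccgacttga
Rad51c (chr11:87404905-87405204, minus strand): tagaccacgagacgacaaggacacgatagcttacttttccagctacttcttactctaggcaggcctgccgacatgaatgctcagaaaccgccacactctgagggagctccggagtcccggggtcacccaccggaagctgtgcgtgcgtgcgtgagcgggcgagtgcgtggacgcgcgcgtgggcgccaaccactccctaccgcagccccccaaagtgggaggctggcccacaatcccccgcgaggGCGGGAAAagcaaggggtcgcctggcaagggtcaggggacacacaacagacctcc

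The E2F letters began 168 bases upstream of the start in Brca2, 152 in Chek2, 16 in Mdc1 and 5 in the Rad51c window shown. Rad51c has a second window, which also holds them. Among the 36 other members with a window, 4 held them (Bard1, Fancg, Topbp1 and Xrcc6), and of the 32851 windows of all genes 2.26% did. Of the 8 members that held them, Fancg alone, on 53 and 56 reads, had a log2 ratio above 0, where 11 of all 53 members did. CCAAT letters were in the windows of 3 of the 8 genes called lower (Atm, Chek2 and Mdc1), of 20 of the 36 others, and in 37.4% of all windows. The cAMP response letters TGACGTCA were in Brca2, in the Rad51c window that is not shown and in 1.79% of all windows. The cell cycle homology letters TTTGAA or TTCGAA, which can overlap CCAAT, were in Atr and in 6 of the 36 others, and in 19.2% of all windows. The amino acid response letters TGATGNAA were in Fancl alone among the members and in 3.97% of all windows. A match of letters is a description and not a binding site.

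Of the 6 genes that hold and trim broken ends, 4 were lower by the adjusted p and 1 was higher, against 24.1% and 14.5% of all genes, and 0 were called. Under TMM, Mre11a and Rbbp8 no longer passed, which left 2 lower. Rad50 counted 1048 and 574 reads (log2 ratio -0.68, -0.83 to -0.53). Its complex partners Mre11a, a nuclease, and Nbn, which docks ATM, had 1644 and 1177 and 470 and 345 reads, with log2 ratios of -0.30 (-0.41 to -0.19) and -0.26 (-0.47 to -0.057). Rbbp8, the starter of resection, was at -0.47 (-0.68 to -0.26) on 487 and 309 reads, and the helicase gene Blm at -0.46 (-0.60 to -0.32) on 1078 and 691 reads. Exo1, the nuclease that resects over long distances, had 886 and 1029 reads and was higher by the adjusted p, with a log2 ratio of 0.40 (0.27 to 0.53). Relative to the median gene, the difference for Exo1 was 0.54.

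The strand exchange genes, which act when a broken end pairs with the intact copy, differed in direction: 2 of 7 were lower and 2 higher by the adjusted p, against 24.1% and 14.5% of all genes. Rad51c (gene ID 114714; chromosome 11, 87190147 to 87218456, minus strand) had 65 and 22 reads, or 2.12 and 0.81 FPKM, and a log2 ratio of -1.36 (-2.15 to -0.66). Its adjusted p of 0.00016 in the exact binomial test was the weakest of the 8 calls. Rad51c lost its call with the ratio of FPKM + 1 (log2 -0.79) and when cultures were assumed to vary by 0.1, and it was too low to be tested at a mean of at least 50 reads. Rad51d counted 444 and 236 reads (log2 ratio -0.73, -0.96 to -0.50), and Xrcc3 counted 143 and 77 reads (log2 ratio -0.70, -1.13 to -0.30). Xrcc2, which pairs with RAD51D, had 218 and 273 reads and was higher by the adjusted p, at 0.51 (0.25 to 0.77). Rad51b had 11 and 8 reads, too few to place its log2 ratio (-1.79 to 1.17). Rad52, a strand annealing factor, had 161 and 221 reads and was higher by the adjusted p, at 0.64 (0.34 to 0.94), while the translocase gene Rad54l counted 318 and 210 reads (log2 ratio -0.41, -0.67 to -0.16).

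In the Fanconi core complex, which carries the ubiquitin ligase FANCL, 0 of 8 members were called and 2 were lower by the adjusted p, near the 24.1% of all genes. These were Fance, on 210 and 111 reads (log2 ratio -0.73, -1.08 to -0.40), and the DNA translocase gene Fancm, at -0.46 (-0.65 to -0.28) on 608 and 388 reads, which no longer passed under TMM. Fancb had the lowest log2 ratio of the group, -0.74 (-1.25 to -0.26), on 105 and 55 reads. Fancl and Fancf both stood at -0.35, on 244 and 168 and on 45 and 31 reads, with intervals of -0.65 to -0.064 and -1.06 to 0.34. Fancc was at -0.16 (-0.52 to 0.20) on 147 and 116 reads. Fanca was at 0.11 (-0.15 to 0.36) on 263 and 249 reads, and Fancg had the highest value, 0.26 (-0.30 to 0.83), on 53 and 56 reads. Exons of Fanca, Fancc, Fancf and Fancl overlap a gene on the opposite strand. Both targets of the complex were lower by the adjusted p, as were 24.1% of all genes. Fanci (gene ID 208836; chromosome 7, 86536815 to 86595151, plus strand) counted 286 and 122 reads (log2 ratio -1.04, -1.36 to -0.73), and Fancd2 had 802 and 470 reads and one of -0.59 (-0.75 to -0.42). Exons of Fanci overlap Polg and those of Fancd2 overlap 4931417G12Rik, each on the opposite strand, so the reads of both are uncertain. Fanci, at -0.91 under TMM, also lost its call under each other scaling.

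Among the nucleases, Mus81 lay just outside the cutoff. It counted 130 and 58 reads (log2 ratio -0.97, -1.45 to -0.52), next to Fanci just inside. Its binding partner Eme1 counted 861 and 523 reads (log2 ratio -0.53, -0.69 to -0.38), and the scaffold gene Slx4 had 364 and 349 reads and one of 0.12 (-0.091 to 0.34).

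Of the 6 end joining genes, 1 was called lower (Xrcc4), where 7.98% of all genes were. Xrcc4 (gene ID 108138; chromosome 13, 89913632 to 90229213, minus strand), the scaffold of the ligase step, counted 75 control and 18 HTL treatment reads. Its log2 ratio of -1.85 (-2.70 to -1.12) was the lowest of all 53 members. Exons of Xrcc4 overlap Tmem167 on the opposite strand, and the gene was too low to be tested at a mean of at least 50 reads. Lig4, the ligase that XRCC4 holds, counted 244 and 200 reads (log2 ratio -0.10, -0.38 to 0.17). The Ku genes Xrcc5 and Xrcc6, which cap broken ends, had 306 and 225 and 447 and 304 reads, with log2 ratios of -0.26 (-0.51 to -0.0051) and -0.37 (-0.59 to -0.16). Prkdc, the kinase that Ku recruits, was at -0.22 (-0.43 to -0.012) on 435 and 328 reads, and Dclre1c, the nuclease Artemis, at -0.25 (-0.42 to -0.086) on 708 and 523 reads. The adjusted p alone likewise passed 1 of the 6, Xrcc4, against 24.1% of all genes lower. Of the remaining members, Polq, the polymerase of microhomology-mediated joining, counted 312 and 200 reads (log2 ratio -0.46, -0.72 to -0.20). Parp1, the sensor of DNA nicks, counted 6392 and 5165 reads (log2 ratio -0.12, -0.18 to -0.069), within 0.015 of the median gene. Under TMM the values of Lig4 and Parp1 were above 0 (0.028 and 0.0079).

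Levels per transcript length ranged widely, and the order of the members in the libraries was alike (Spearman rho 0.911 over the 53 members, a description). Parp1 was the highest member, with 159 FPKM in the control and 146 in the HTL treatment library, and Rad51b the lowest, with 0.57 and 0.47. The median member had 9.32 FPKM in the control library, where the median gene tested had 7.13. In the HTL treatment library the median member had 9.2 FPKM. These medians fall on different genes, Brca2 in the control and Hus1 in the HTL treatment library. The plot of FPKM in both libraries sets the members against all genes. In the control library Chek2 (30.0 FPKM) stood above Chek1 (22.4 FPKM), and in the HTL treatment library Chek1 (25.2 FPKM) stood above Chek2 (12.8 FPKM).

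**Figure D3:**
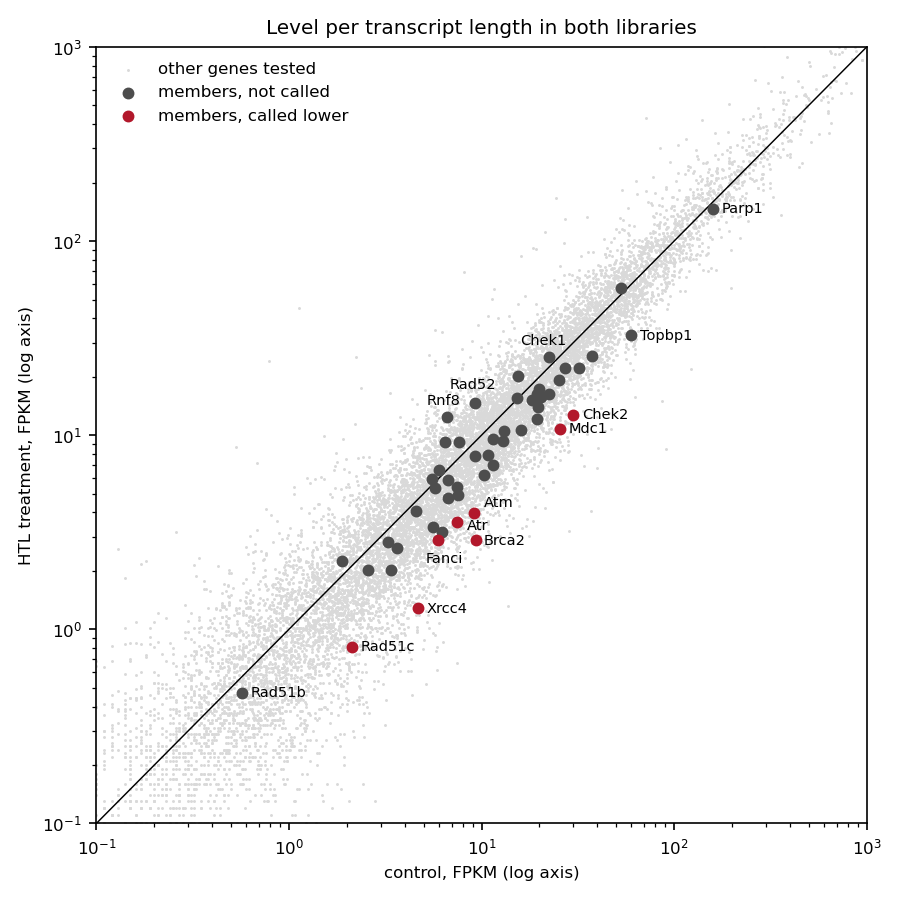
FPKM of the 53 members in the control library (horizontal, log axis) and the HTL treatment library (vertical, log axis) over all other genes tested in grey, with a line of equal level. The 8 members called lower (red) lie below the line over the range from Rad51c at 2.12 to Chek2 at 30.0 control FPKM.

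Ratios between partner genes do not depend on how the libraries are scaled, so the reads of 28 pairs of partners were compared within each library. For 16 pairs the 95% interval of the change in ratio left out 0, and for 12 it did not. The share among other pairs of genes was not computed, so this count says nothing particular to partners. The widest change was between Xrcc4 and Lig4, whose ratio of reads went from 0.307 to 0.090, a log2 difference of -1.77 (-2.65 to -0.96). The ratio of Chek1 to Chek2 went from 1.13 to 3.0, a log2 difference of 1.40 (1.15 to 1.66). Rad51d to Xrcc2 went from 2.04 to 0.864 (-1.24, -1.59 to -0.88) and Rnf168 to Rnf8 from 6.48 to 3.0 (-1.11, -1.45 to -0.77). Brca2 fell relative to Palb2, from 4.29 to 2.01 (-1.09, -1.45 to -0.73), Atr relative to Atrip, from 2.54 to 1.45 (-0.81, -1.17 to -0.46), and Mdc1 relative to Trp53bp1, from 0.774 to 0.427 (-0.86, -1.01 to -0.71).

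For several partners the interval included 0. Xrcc5 to Xrcc6 went from 0.685 to 0.740 (0.11, -0.22 to 0.45), Prkdc to Xrcc6 from 0.973 to 1.08 (0.15, -0.15 to 0.45) and Atm to Atr from 1.82 to 1.66 (-0.13, -0.40 to 0.13). Nbn to Mre11a went from 0.286 to 0.293 (0.036, -0.20 to 0.27) and Brca1 to Brip1 from 4.05 to 4.31 (0.088, -0.14 to 0.32). For the following pairs it left out 0. In the MRE11 complex, Rad50 to Mre11a went from 0.637 to 0.488 (-0.39, -0.57 to -0.20). Within the clamp, Hus1 to Rad1 went from 0.916 to 1.90 (1.05, 0.73 to 1.38). By FPKM this ratio went from 0.392 to 0.656, a smaller change. Slx4 to Mus81 went from 2.80 to 6.02 (1.10, 0.59 to 1.62), and Exo1 to Rbbp8 from 1.82 to 3.33 (0.87, 0.62 to 1.12). The intervals do not show that any pair kept its ratio, only how far it could have moved by counting error.

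**Figure D4:**
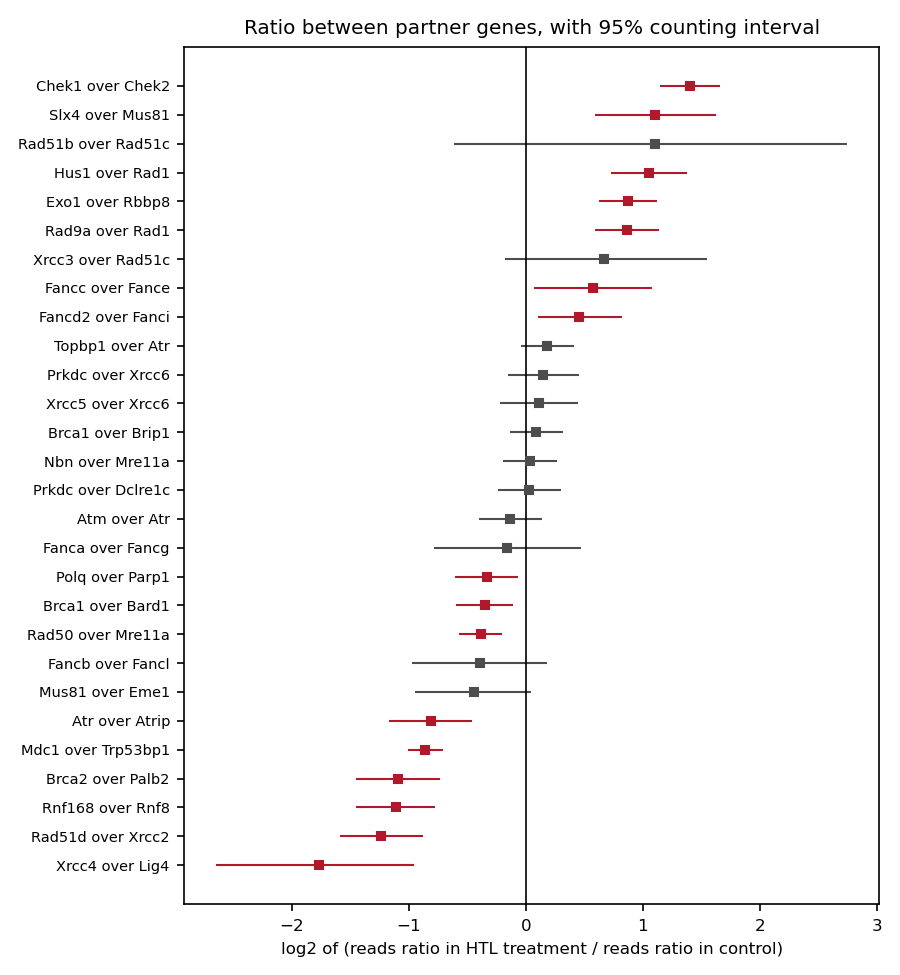
Change in the ratio of reads between 28 pairs of partner genes, as the log2 of the ratio in the HTL treatment library over that in the control library, with conditional exact 95% intervals. Red marks the 16 pairs whose interval leaves out 0; they range from Xrcc4 over Lig4 at -1.77 to Chek1 over Chek2 at 1.40.

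Transcript length moved with the log2 ratio in these libraries. When all genes tested were sorted into 10 bins by length, the bin medians ran from 0.14 for the shortest to -0.38 for the longest. Of the 53 members, 10 were in the longest bin, and these included 4 of the 8 genes called lower (Atm, Atr, Brca2 and Mdc1). Relative to the median of its own length bin, Brca2 was at -1.32, Xrcc4 at -1.83, Rad51c at -1.19 and Chek2 at -1.12, while Mdc1 was at -0.87, Fanci at -0.84, Atm at -0.81 and Atr at -0.68. The first 4 of these passed the cutoff of -1 on that scale, against 5.77% of all genes lower, and Rnf8 passed it upwards at 1.01, against 3.82% of all genes higher. The members as a whole had a median of -0.21 relative to their bins, and 37 of 53 lay below the median of their bin. Genes of like length differed: Prkdc, the longest member at 12674 bases, had a log2 ratio of -0.22, and Atm, at 11964 bases, one of -1.19. The part of transcript length in the differences was not tested.

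**Figure D5:**
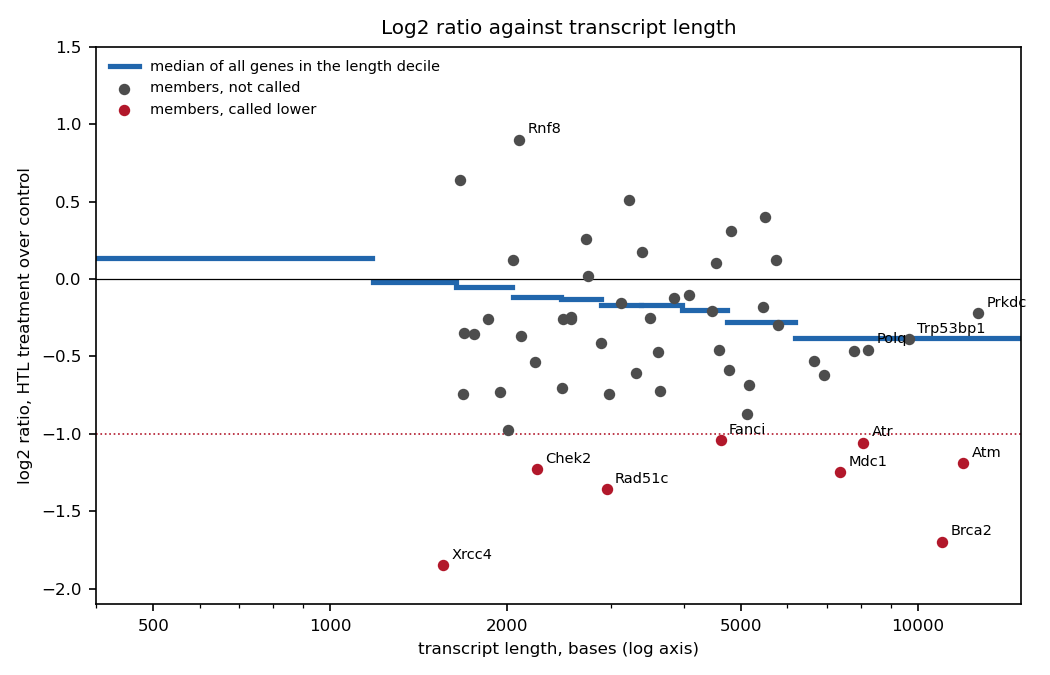
Log2 ratio of the 53 members against transcript length in bases (log axis), with the median of all genes in each of 10 length bins as blue bars and the members called lower in red. The bin medians run from 0.14 to -0.38, and Xrcc4, Chek2 and Rad51c lie well below the bars at short and middle lengths.

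A further list of 52 genes of the same pathways was compared. Its median log2 ratio was -0.34, with 7 genes called lower and 0 higher, where 7.98% and 2.81% of all genes were called. By the adjusted p 20 were lower and 3 higher, against 24.1% and 14.5% of all genes. The largest difference downwards was in Fam175a, the scaffold of the BRCA1-A complex, which had 203 and 48 reads (log2 ratio -1.88, -2.38 to -1.43). The highest value was that of Mad2l2, a subunit of shieldin and of polymerase zeta, with 121 and 172 reads (0.69, 0.35 to 1.04).

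Many of the members are made in S and G2 phase, so markers of both phases were read beside them. The 14 S phase markers had a median log2 ratio of 0.054, with 0 called and 3 lower and 4 higher by the adjusted p, and their reads summed to 108% of the control level. Their lowest and highest values were those of Rrm2, a ribonucleotide reductase subunit (1745 and 1053 reads, -0.54), and Mcm4, a replicative helicase subunit (2492 and 2807 reads, 0.36). Of the 14 G2 and M phase markers, 8 were lower and 2 higher by the adjusted p, against 24.1% and 14.5% of all genes. Their reads summed to 78.2% of the control level, and those of the members to 76.1%. The G2 and M phase markers had a median of -0.24, with Cenpf, a kinetochore gene, called lower (4306 and 1779 reads, -1.09) and Aurka, a mitotic kinase, the highest (2581 and 3211 reads, 0.50). Whether the position of the cells in the cycle took part in the differences of the members was not tested. The 8 genes of p53 and its targets had a median log2 ratio of 0.81. By the adjusted p 3 were higher and 1 lower, against 14.5% and 24.1% of all genes. Gadd45a (19 and 109 reads, log2 ratio 2.67, 1.99 to 3.49) and Sesn2 (447 and 2063 reads, 2.39, 2.24 to 2.54) were called higher, where 2.81% of all genes were. The lowest value was that of Ccng1 (172 and 85 reads, -0.83, -1.22 to -0.45). Cdkn1a, the CDK inhibitor that p53 induces after DNA damage, had 8 and 16 reads.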

How the data were processed

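RNA-seq covered 1 control and 1 HTL treatment library of NE4C cells; the groups come from the sample titles. The authors mapped the reads to the mouse genome. Their methods name a program spelled RESM, read here as RSEM, for the normalization to RPKM. The program behind the estimated counts is not given in the sources used here. The submitters' processing notes list the build mm9. Mapper, gene annotation and strand setting are not given in the sources used here. The deposited values used were the authors' estimated counts, not normalized, of which 21.8% of control and 20.2% of HTL treatment values were fractional, and their FPKM, which the authors scaled to length and depth, with a lowest value of 0.01. The deposited transcript length is in bases. Columns with the authors' own log2 ratio, p-value and FDR were not used.

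Estimated counts were rounded to whole numbers. A minimum of 10 reads summed over the libraries left 13442 genes, tested with a two-sided exact conditional binomial test of a gene's reads against the library totals (scipy 1.17.1), Benjamini-Hochberg adjusted. Cutoffs followed the study's methods. Log2 ratios were computed after adding 0.5 read, in proportion to library size. Without molecular identifiers, reads can be copies of 1 molecule, so intervals cover counting error only; a count of 0 allows up to 3 reads, or 0.29 CPM (control) and 0.33 CPM (HTL treatment). With 1 library per condition, neither DESeq2 nor edgeR's quasi-likelihood model could be fitted. Scaling factors came from edgeR 4.0.16 and DESeq2 1.42.0. The test was checked on simulated counts.

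Intervals for partner ratios are conditional exact intervals of the odds ratio. Gene positions and exon overlaps were read from GENCODE vM1 (NCBIM37), by symbol or a RefSeq synonym, for all 53 members, of which 17 had exons that overlap another gene. Promoter windows are from RefSeq on GRCm38.p6 and were matched by symbol.

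The members and all lists were chosen with earlier results of these data known. The 53 members were divided into 11 role groups, and 12 further lists were read. Every member was named. Reads were given for called genes, for the extremes of each role group and for partner genes, and of each further list the lowest and highest gene was named. Sox2, Vim, Stmn2, Rbfox3, Nes, Fabp7, Gfap, Cdkn1a and Trp53 were named outside that rule. Alternatives were 3 other scalings, other minimums of reads, 5 reads added, FPKM + 1, centring by length, other cutoffs and the exact test of edgeR at assumed coefficients of variation of 0.1, 0.2 and 0.4.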

Additional observations from a re-analysis of the deposited data

How the results depend on the processing

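No paired analysis was possible because there was only 1 library on each side, and leaving out a library was likewise not possible. The count of 8 members called lower became 5 with the ratio of FPKM + 1 (4.28% of all genes), which shrinks ratios of genes with low FPKM, and 4 relative to the length bins (5.77%). It became 17 at a fold of at least 1.5 (16.2% of all genes) and 25 without a cutoff on the log2 ratio (24.1%), as those rules admit more genes, with 2 (7.37%) and 4 (14.5%) members higher. With an assumed coefficient of variation of 0.1 it was 7 (6.18% of all genes). With 0.2 or 0.4 it was 0 (0.61% and 0.037% of all genes). Without the 28 members that overlap another gene or have fractional counts, an alternative chosen after seeing the data, 2 of 25 were lower (Brca2 and Rad51c), against 7.95% of the genes then tested, and the other 6 genes called lower were among those left out. With scaling by TMM or by the median of ratios, and relative to the length bins, 1 member (Rnf8) was called higher instead of 0. Atr and Fanci lost the call under each other scaling. Under the other 7 alternatives run 6 to 8 members were lower, against 5.86% to 10.4% of all genes.

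The median of -0.39 became -0.26 with TMM, -0.25 with the median of ratios and -0.21 relative to the length bins. Those settings also move the median of all genes. Relative to it, the median of the members was -0.25 in the main setting and with both scalings, and -0.21 with the length bins. Under the alternatives run, this difference ran from -0.21 to -0.32. Signs turned for Parp1 (0.0079 with TMM, 0.014 with the median of ratios, 0.046 relative to its length bin), Lig4 (0.028, 0.035 and 0.10) and, relative to their length bins only, Prkdc (0.16), Bard1 (0.10) and Fancc (0.014).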

Other observations

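Genes of the other repair pathways were read in the same way, against a median of -0.14 for all genes tested, of which 7.98% were called lower and 2.81% higher. The 18 base excision repair genes, which remove damaged bases, had a median log2 ratio of -0.29, with 2 called lower and 0 higher. The lowest was Mutyh, a glycosylase gene for mispaired adenine, with 136 and 48 reads (-1.31, 95% interval -1.82 to -0.83), and the highest was Apex2, an endonuclease gene, with 199 and 306 reads (0.80, 0.54 to 1.07). The 18 nucleotide excision repair genes, which cut out bulky lesions, had a median of -0.23, with 2 called lower and 0 higher. Uvssa, a factor of transcription-coupled repair, had 159 and 43 reads (-1.69), and Ddb1, a lesion-binding and ubiquitin ligase subunit, had 11758 and 14497 reads (0.49). The 7 mismatch repair genes had a median of -0.26 with 1 called lower, Mlh3 (46 and 8 reads, -2.27, -3.63 to -1.24), and the highest was Msh3 (495 and 428 reads, -0.024).

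The marker lists gave these values. Of the 7 neural stem cell markers tested, 3 were called lower: Sox1, Sox2 and Vim, the last with 1487 and 648 reads (-1.01, -1.15 to -0.88). Sox1 was the lowest (48 and 12 reads, -1.78) and Prom1 the highest (443 and 555 reads, 0.51). Among neuron markers the lowest was Dcx (88 and 29 reads, -1.40) and the highest Tubb3 (296 and 396 reads, 0.60). Of the glial list only Mbp had enough reads to test (182 and 186 reads, 0.22). Of the microglia and endothelial list the lowest was Pecam1 (31 and 15 reads, -0.84) and the highest Cx3cr1 (16 and 16 reads, 0.18). Of the fibroblast list the lowest was Pdgfra (45 and 27 reads, -0.54) and the highest were Col1a1 and Col1a2 (12 and 25 reads each, 1.21).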
